A study of Mus musculus with 19 samples.

Results

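The endothelin and natriuretic peptide system was described in mouse endometrium through 10 genes, chosen by their symbols in the mouse GENCODE annotation of GRCm38, out of 49089 genes with deposited counts. They comprise the endothelin ligands (Edn1, Edn2, Edn3), the endothelin receptors (Ednra, Ednrb), the endothelin-converting enzyme Ece1, the C-type natriuretic peptide gene Nppc and the natriuretic peptide receptors (Npr1, Npr2, Npr3). All 10 were matched. RNA of scraped endometrium from wild-type C57Bl/6 females was sequenced in 19 libraries of 5 groups, each library from a pooled sample. The CONT group (3 libraries, numbered 1, 2 and 4) came from untreated virgin females around the time of ovulation, referred to as estrus. The INT group (4 libraries) held endometrium collected at day 3.5 pc, the females having been mated to intact BALB/c males at 8 to 14 weeks of age according to the methods. The SVX, SVX_VAS and VAS groups (4 libraries each) came from females 3.5 days after mating with BALB/c males that had undergone surgery. These prefixes serve as names only, since the sample titles attach another surgery to each of them (vasectomised for SVX, seminal vesicle-deficient for SVX_VAS, and the combination of both for VAS). Estrous tissue was taken in the late evening from virgin females and day 3.5 pc tissue at noon from mated females, so mating, stage and hour of collection cannot be told apart. How many females were pooled per library was not given in the sources used here, and p-values measure the spread between these pooled samples.

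Endothelins are short peptides cut from larger precursors by endothelin-converting enzymes, and they act through G protein-coupled receptors. Ednra is found mainly on smooth muscle and other mesenchymal cells, where its activation contracts vessels and the uterus, whereas Ednrb is prominent on endothelial cells, where it favours vessel relaxation and removes circulating endothelin. Natriuretic peptides act in the opposite direction on vessels. Npr1 binds atrial and B-type natriuretic peptide and Npr2 binds C-type natriuretic peptide, and both receptors make cyclic GMP, whereas Npr3 has no cyclase domain and clears the peptides. In the ovary, Nppc and Npr2 hold the oocyte in meiotic arrest, and both are estrogen-responsive in the mouse uterus and ovary.

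Libraries held between 12661266 and 31781270 counts on genes. The CONT group was the deepest, with totals between 15487788 and 31781270, and INT totals lay between 14201095 and 17420572. VAS libraries 2 and 3 stood apart from the other 17. They had a count in 25016 to 25037 genes against 27757 to 29626, and 703 to 723 CPM (counts scaled to library size) of Malat1, an abundant nuclear RNA, against 7243 to 14114 CPM. Their level of Tsix, an antisense RNA, was 0.359 to 0.621 CPM against 150.4 to 288 CPM. The antisense partners of Npr1 and Npr2 were also nearly lost in them. Gm16048, opposite Npr1, had 8 and 0 counts and Gm12473, opposite Npr2, none, against at least 77 and 66 counts in each other library. For the 9 tested genes, fold changes of the VAS group against CONT are therefore given with and without them. Against INT, the range of the fold changes is given both ways. Single genes are given as CPM with TMM scaling, an edgeR method that corrects for composition, and genes are compared with one another only as CPM per kilobase of exon. The limit that a count of 0 allows is 3 counts, for counting error only.

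On day 3.5 pc the endothelin receptors and the ligand gene Edn3 were far above their estrus levels. Ednrb was 10.3-fold and Edn3 12.8-fold higher in INT than in CONT, and Ednra was 3.43-fold higher. The clearance receptor Npr3 was 3.66-fold higher, while Npr1, the receptor of atrial natriuretic peptide, fell. In the edgeR quasi-likelihood fit over all 19 libraries, 9 of the 10 genes passed the filter on low counts, Edn2 being the exception. Of these 9 genes, 5 (55.6%) were called at a false discovery rate (FDR) of 0.05 or less and a change of at least 1.5-fold, against 33.6% of the 17222 genes tested. Higher calls numbered 4, where 20.9% of all genes tested were higher, and there was 1 lower call, where 12.7% were lower. The median log2 fold change (logFC) of the 9 genes was 0.44, against -0.01 over all genes tested. Edn3 passed the filter (3 CPM in 3 or more libraries) only through the mated groups, since its highest CONT library held 0.910 CPM. Edn2, which was highest in CONT, did not pass, so the filter bears on these shares and on the median. With the filter at 1 CPM all 10 genes were tested, and 5 were called in INT (4 higher, 1 lower), beside 6836 of 20903 genes. Libraries of INT and CONT did not overlap in 6 of the 9 genes (66.7%), against 62.3% of all genes tested, so non-overlap was about as frequent in these genes as elsewhere.

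**Figure D1:**
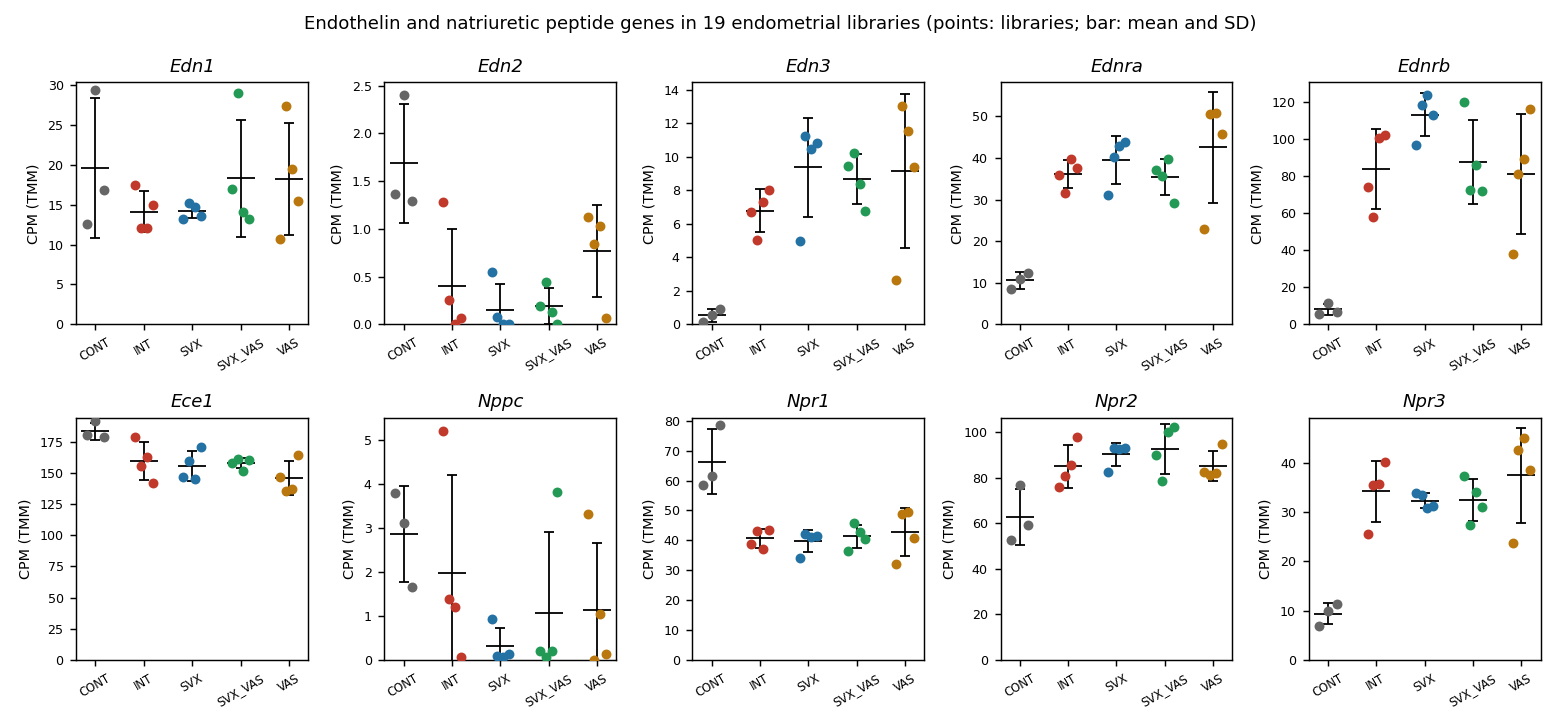
CPM with TMM scaling of the 10 genes in each of the 19 libraries (points), with the mean and SD of each group (bars), on a separate linear axis from 0 for each gene. Edn3, Ednra, Ednrb and Npr3 lie above the CONT libraries in all 16 libraries of mated females, and Npr1 lies below them in all 16.

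Edn3 encodes endothelin 3, a ligand with a preference for Ednrb that is best known for its part in neural crest development. It lies on the plus strand of chromosome 2 (GRCm38, chr2:174760619-174784042) and was close to absent at estrus. CONT libraries 1, 2 and 4 held 0.119, 0.574 and 0.910 CPM, which rest on 2, 16 and 12 counts. INT libraries 1 to 4 held 6.73, 5.04, 7.30 and 8.05 CPM. The lowest INT library was thus above the highest CONT library. Edn3 held 4.98, 11.2, 10.5 and 10.8 CPM in SVX libraries 1 to 4, 9.47, 10.2, 8.37 and 6.77 CPM in SVX_VAS, and 2.65, 13.1, 11.6 and 9.39 CPM in VAS. SVX library 1 and VAS library 1 were the low libraries of their groups, and still lay above all 3 CONT libraries. The logFC was 3.67 in INT (standard error 0.57, edgeR FDR 9.31e-05), 4.14 in SVX, 4.03 in SVX_VAS and 4.11 in VAS, each against CONT. Because the level at estrus rests on so few counts, the fold is less certain than those of the receptors, and its 95% interval ran from 2.46 to 4.89 on the log2 scale.

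Ednrb, the endothelin receptor that binds all endothelins alike, lies on the minus strand of chromosome 14 (chr14:103814625-103844173). CONT libraries 1, 2 and 4 held 5.71, 11.6 and 6.82 CPM. INT libraries held 74.0, 57.9, 100.4 and 102 CPM. No INT library came near the estrus values, although INT libraries 1 and 2 were lower than libraries 3 and 4. SVX libraries held 96.9, 118, 124 and 113 CPM, SVX_VAS libraries 119.7, 72.4, 86.0 and 72.0 CPM, and VAS libraries 38.0, 81.2, 89.2 and 116 CPM. All 16 mated libraries were above the 3 estrus libraries, with VAS library 1 the lowest of them. The mean rose from 8.05 ± 3.15 CPM (SD, n = 3) in CONT to 83.7 ± 21.5 CPM (SD, n = 4) in INT, a logFC of 3.36 (standard error 0.36, edgeR FDR 5.65e-06). In the other mated groups the logFC against CONT was 3.79 (SVX), 3.43 (SVX_VAS) and 3.32 (VAS).

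Ednra, which binds endothelin 1 and endothelin 2 more tightly than endothelin 3, lies on the minus strand of chromosome 8 (chr8:77663031-77724464). It rose less than Ednrb. CONT libraries held 8.44, 10.8 and 12.4 CPM, against 35.9, 31.7, 39.8 and 37.6 CPM in INT. SVX libraries held 31.2, 40.3, 42.9 and 43.9 CPM, SVX_VAS libraries 37.1, 35.7, 39.7 and 29.3 CPM, and VAS libraries 22.9, 50.6, 50.9 and 45.7 CPM. The estrus libraries again lay below every mated library, and VAS library 1 was again the lowest mated library. The logFC was 1.78 in INT (standard error 0.23, edgeR FDR 2.20e-05), 1.91 in SVX, 1.75 in SVX_VAS and 2.01 in VAS. An RNA on the opposite strand, 4933431K23Rik, shares 91 exon bases (1.66%) with Ednra and had only 15 to 38 counts in CONT and 54 to 89 in INT, against 142 to 301 and 474 to 697 for Ednra.

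Npr3, the clearance receptor for natriuretic peptides, lies on the minus strand of chromosome 15 (chr15:11839896-11905674). CONT libraries held 6.96, 9.91 and 11.2 CPM, and INT libraries 25.5, 35.4, 35.8 and 40.1 CPM. In SVX the values were 33.9, 33.3, 30.7 and 31.2 CPM, in SVX_VAS 37.4, 27.4, 34.0 and 31.0 CPM, and in VAS 23.6, 42.6, 45.1 and 38.6 CPM. The spread within SVX was the smallest, with an SD of 1.55 CPM (n = 4). No mated library overlapped estrus. The logFC against CONT was 1.87 in INT (standard error 0.22, edgeR FDR 8.63e-06), 1.79 in SVX and in SVX_VAS and 2.0 in VAS.

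Npr1, on the minus strand of chromosome 3 (chr3:90450591-90465866), went the other way. CONT libraries held 58.6, 61.5 and 78.7 CPM, and INT libraries 38.8, 43.2, 37.1 and 43.3 CPM. SVX libraries held 34.1, 42.2, 41.2 and 41.6 CPM, SVX_VAS libraries 36.5, 45.7, 42.8 and 40.5 CPM, and VAS libraries 32.1, 48.9, 49.4 and 40.9 CPM. The highest mated library, VAS library 3, was still below the lowest estrus library. The logFC of Npr1 was -0.71 in INT (standard error 0.14, edgeR FDR 0.000656), which is 1.63-fold lower, and it was -0.74 in SVX, -0.68 in SVX_VAS and -0.63 in VAS. This fall lies close to the cutoff. With upper quartile scaling, which moved the median of all genes by 0.13, it was -0.58 in INT, and without CONT library 4 it was -0.57 (FDR 0.00605), both under 1.5-fold. The antisense gene Gm16048 shares 559 exon bases (11.7%) with Npr1 and moved the same way, from 202 to 365 counts in CONT to 106 to 128 counts in INT, against 986 to 1713 and 513 to 686 counts for Npr1. Its part in the fall was not tested, and whether reads were counted by strand was not given in the sources used here.

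**Figure D2:**
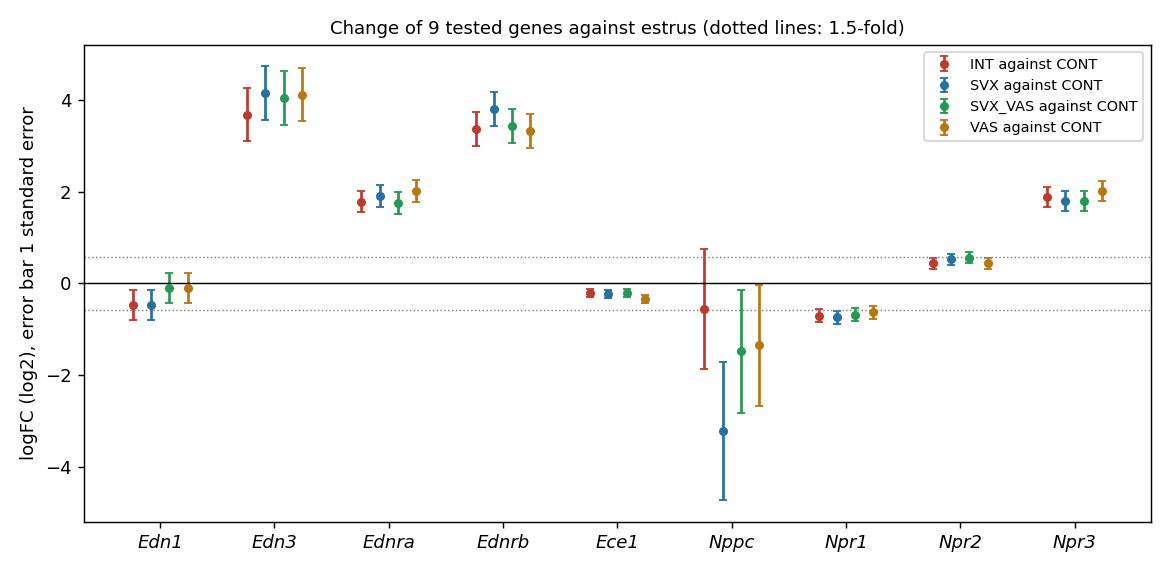
logFC (log2) of the 9 tested genes in each mated group against CONT, with 1 standard error, and dotted lines at 1.5-fold. Edn3, Ednra, Ednrb and Npr3 lie above the upper line and Npr1 below the lower line in all 4 groups, while the standard error of Nppc reaches 1.5.

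The 250 bases before the RefSeq start (GRCm38.p6) are given for these 5 genes because they were the ones called against CONT, 4 higher and 1 lower. RefSeq windows of 300 bases (250 before and 50 after the start) were found for all 10 genes, and 8 motifs were searched on both strands, none of them contained in another. They were AGAACA (a hexamer bound by progesterone and glucocorticoid receptors), the palindromic estrogen response element, GGGCGG (GC box), ACGTG (hypoxia response core), AGATAA (bound by GATA factors), GACCACCCA (GLI), TATAAA (the core promoter box) and TGANTCA (AP-1). Capitals mark the matches within the sequences shown, written 5′ to 3′ on the strand of the gene, at chr2:174760369-174760618 (plus) for Edn3, chr8:77724453-77724702 (minus) for Ednra, chr14:103843702-103843951 (minus) for Ednrb, chr15:11907372-11907621 (minus) for Npr3 and chr3:90465867-90466116 (minus) for Npr1.
Edn3: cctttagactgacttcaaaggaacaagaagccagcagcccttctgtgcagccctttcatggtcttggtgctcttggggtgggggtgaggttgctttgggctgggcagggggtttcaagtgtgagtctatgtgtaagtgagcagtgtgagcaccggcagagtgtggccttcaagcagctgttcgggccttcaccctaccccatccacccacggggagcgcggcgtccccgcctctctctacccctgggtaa
Ednra: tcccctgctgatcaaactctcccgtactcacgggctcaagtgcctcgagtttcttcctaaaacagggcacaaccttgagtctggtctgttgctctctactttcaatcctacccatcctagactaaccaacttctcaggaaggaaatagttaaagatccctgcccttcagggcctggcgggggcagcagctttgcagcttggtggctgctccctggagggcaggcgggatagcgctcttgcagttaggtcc
Ednrb: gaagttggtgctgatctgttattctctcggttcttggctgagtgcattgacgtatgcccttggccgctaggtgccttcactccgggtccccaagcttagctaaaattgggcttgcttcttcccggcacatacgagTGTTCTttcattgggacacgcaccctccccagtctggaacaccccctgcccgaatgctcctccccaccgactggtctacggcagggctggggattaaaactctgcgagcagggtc
Npr3: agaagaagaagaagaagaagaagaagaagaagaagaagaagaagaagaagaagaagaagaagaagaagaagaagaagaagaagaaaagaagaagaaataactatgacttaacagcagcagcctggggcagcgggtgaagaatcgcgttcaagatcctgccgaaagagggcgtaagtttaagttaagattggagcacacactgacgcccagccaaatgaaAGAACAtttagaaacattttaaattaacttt
Npr1: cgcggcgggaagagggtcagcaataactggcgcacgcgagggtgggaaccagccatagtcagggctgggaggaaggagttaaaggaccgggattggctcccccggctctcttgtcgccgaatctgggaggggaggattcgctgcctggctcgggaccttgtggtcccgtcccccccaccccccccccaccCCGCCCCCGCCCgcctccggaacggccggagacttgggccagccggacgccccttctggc
The AGAACA hexamer was matched in Ednrb, as TGTTCT 115 bases before the start, and in Npr3, 31 bases before the start, and 19% of the 32817 windows hold it. Among the genes not shown, Ece1 also held it in 1 window, as TGTTCT 104 bases before the start. Npr1 had adjoining GC boxes 60 and 54 bases before its start, and 35.6% of windows hold that motif. Windows of Ece1 and Nppc, not shown, held GC boxes as well. The hypoxia response core was matched in Edn1 and Ece1 (19.6% of windows hold it), the GATA motif in Edn1 (11.2%) and TATAAA in Nppc (13.6%). The windows of Edn3 and Ednra held none of the 8 motifs. The RefSeq start of Npr3 lies upstream of the exons counted here. The sequence shown for Ednrb, with its match, lies within the span of the counted gene (chr14:103814625-103844173). The last bases of the Ednra sequence also lie within the span of that gene.

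The other ligand genes did not share the rise of Edn3. Edn1 encodes endothelin 1, the main vasoconstrictor form, made by endothelium and by uterine epithelium, and lies on chromosome 13 (chr13:42301270-42307989, plus). CONT libraries held 12.5, 29.4 and 16.8 CPM, and INT libraries 17.4, 12.0, 12.1 and 15.0 CPM. SVX libraries held 13.2, 15.2, 14.7 and 13.6 CPM, SVX_VAS libraries 16.9, 28.9, 14.1 and 13.2 CPM, and VAS libraries 10.7, 27.3, 19.5 and 15.4 CPM. Groups overlapped throughout, and 1 high library each in CONT, SVX_VAS and VAS made most of the spread. The logFC against CONT was -0.47 in INT (standard error 0.33, edgeR FDR 0.249, 95% interval -1.17 to 0.22), -0.47 in SVX, -0.10 in SVX_VAS and -0.11 in VAS. Without CONT library 2 it was -0.059 in INT and -0.053 in SVX, and without CONT library 1 it was -0.72 and -0.71. In the other 2 comparisons its sign turned with single libraries left out. It was 0.31 in SVX_VAS and in VAS without CONT library 2, 0.0061 and 0.027 in SVX_VAS without SVX_VAS library 3 or 4, and 0.080 in VAS without VAS library 1.

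Edn2, the gene of endothelin 2, which in the ovary is made at ovulation, lies on chromosome 4 (chr4:120161206-120167360, plus) and was too low to be tested. It had 23, 67 and 17 counts in CONT libraries 1, 2 and 4, against 17, 4, 0 and 1 in INT, 7, 1, 0 and 0 in SVX, 4, 8, 2 and 0 in SVX_VAS, and 20, 18, 22 and 1 in VAS. Every mated library was below every estrus library in CPM, but INT library 1 (1.286 CPM) lay just under CONT library 4 (1.289 CPM). When the filter was set to at least 1 CPM in 3 libraries, Edn2 entered the fit with a logFC against CONT of -2.19 in INT (edgeR FDR 0.0871), -3.46 in SVX (0.0170), -3.09 in SVX_VAS (0.0227) and -1.14 in VAS (0.312).

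Ece1 cuts the endothelin precursors to their active form and was the most abundant of the 10 genes (chr4:137862237-137965229, plus). CONT libraries held 180.5, 191 and 179 CPM, INT libraries 179, 156, 163 and 142 CPM, and the other mated libraries between 135 and 171 CPM. All mated libraries lay below estrus, INT library 1 (178.7 CPM) only just under CONT library 4 (178.8 CPM). The differences were small, with a logFC of -0.20 in INT (standard error 0.087, edgeR FDR 0.0681), -0.24 in SVX (0.0270), -0.22 in SVX_VAS (0.0449) and -0.33 in VAS (0.00405), none of them reaching 1.5-fold. Without VAS libraries 2 and 3 the VAS value was -0.24 (FDR 0.0525). With upper quartile scaling in edgeR the INT value was -0.075 (FDR 0.466). Over all alternatives run, the value closest to no change was -0.066 in SVX, -0.070 in SVX_VAS and -0.13 in VAS. The highest FDR was 0.495, 0.481 and 0.155, so passing the FDR depended on the processing.

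Npr2, the cyclase receptor of C-type natriuretic peptide (chr4:43631935-43651244, plus), was somewhat higher in mated females. CONT libraries held 52.4, 76.5 and 59.3 CPM and INT libraries 75.9, 80.5, 85.5 and 97.8 CPM, which overlap by INT library 1. SVX libraries held 82.2, 92.9, 92.4 and 92.9 CPM, SVX_VAS libraries 90.0, 78.3, 100.1 and 102 CPM, and VAS libraries 82.5, 80.9, 82.1 and 94.9 CPM, all above CONT. The logFC was 0.44 in INT (standard error 0.12, edgeR FDR 0.00880), 0.52 in SVX, 0.56 in SVX_VAS and 0.44 in VAS, so that Npr2 passed the FDR in each group but not the 1.5-fold cutoff. This depended on single libraries. Without CONT library 2 it passed both in all 4 groups, with a logFC of 0.60 in INT (FDR 0.00107), 0.69 in SVX, 0.73 in SVX_VAS and 0.60 in VAS. In SVX_VAS it also passed both without SVX_VAS library 2 (0.63) and when only the groups compared were fitted (0.59). Without CONT library 1 it passed neither in INT (0.32, FDR 0.0655) nor in VAS (0.32, FDR 0.0534). An antisense gene, Gm12473, shares 266 exon bases (5.70%) with Npr2.

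Nppc, which encodes C-type natriuretic peptide, the ligand of Npr2 (chr1:86666291-86670571, minus), was low and varied most. CONT libraries held 3.8, 3.12 and 1.67 CPM, whereas INT libraries held 5.22, 1.39, 1.2 and 0.0700 CPM. SVX libraries held 0.935, 0.0786, 0.0731 and 0.143 CPM, SVX_VAS libraries 0.193, 0.0554, 0.198 and 3.82 CPM, and VAS libraries 3.33, 0, 1.03 and 0.141 CPM. INT library 1, SVX_VAS library 4 and VAS library 1 were at estrus levels, while INT library 4, SVX_VAS libraries 1 to 3 and VAS libraries 2 and 4 had 0 to 4 counts. The logFC against CONT was -0.56 in INT (standard error 1.31, edgeR FDR 0.770), -3.21 in SVX (1.5, FDR 0.0782), -1.48 in SVX_VAS (1.34, FDR 0.377) and -1.35 in VAS (1.32, FDR 0.392), none of them called. In SVX, where the libraries did not overlap CONT, leaving out SVX library 1 gave -4.76 (FDR 0.0431), and in SVX_VAS leaving out library 4 gave -4.21 (FDR 0.0294). In INT the logFC was -1.68 (FDR 0.363) without INT library 1 and -0.16 (FDR 0.947) without INT library 4. In VAS it was -2.8 (FDR 0.104) without VAS library 1 and -0.70 without VAS libraries 2 and 3. Among the other natriuretic peptide genes, Nppa was at most 0.706 CPM in any library and Nppb had no count in any.

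Libraries of mated females also differed in genes of the uterine estrogen response, and these values are given beside Nppc, Edn2 and Edn1. The summed level of 7 such genes (Ltf, Lcn2, C3, Muc1, Clu, Sprr2a1 and Pgr) lay between 9228 and 11877 CPM in CONT. In INT it was 8126, 3311, 682 and 685 CPM in libraries 1 to 4. It was 1175 CPM in SVX library 1, 8597 CPM in SVX_VAS library 2, 1471 CPM in SVX_VAS library 4, 2974 CPM in VAS library 1 and 1114 CPM in VAS library 2, and 637 to 797 CPM in the remaining mated libraries. Most of the CONT level came from C3 and Ltf (means of 5772 and 2270 CPM). Pgr moved little (means of 416 CPM in CONT, 488 in INT and 456 in SVX), so it makes up much of the lowest summed levels. INT library 1 had the highest INT level of this list, of Nppc and of Edn2. SVX library 1 had the highest SVX level of all 3. Edn1 went both ways, since SVX library 1 (13.2 CPM) and VAS library 1 (10.7 CPM), the highest of their groups for the list, had the lowest Edn1 of their groups, and INT library 1 (17.4 CPM) and SVX_VAS library 2 (28.9 CPM) had the highest. SVX_VAS library 2, with the highest level of the list among mated libraries, also had the highest Edn2 of its group (0.444 CPM), but held only 0.0554 CPM of Nppc, the lowest of its group. VAS library 1 had the highest VAS level of the list, of Nppc (3.33 CPM) and of Edn2 (1.13 CPM). Other libraries did not follow the list. VAS libraries 2 and 3 held 0.840 and 1.03 CPM of Edn2 at list levels of 1114 and 797 CPM, while INT library 2, at 3311 CPM, held 0.252 CPM. SVX_VAS library 4, at 1471 CPM of the list, had no count of Edn2 but the highest Nppc of its group (3.82 CPM). Of the 7 genes, 6 were tested in INT against CONT, 2 were lower (Muc1 and Clu) and none was higher, and Sprr2a1 was at 0 in 11 of the 19 libraries. The part of this state in the levels of Nppc and Edn2 was not tested.

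**Figure D3:**
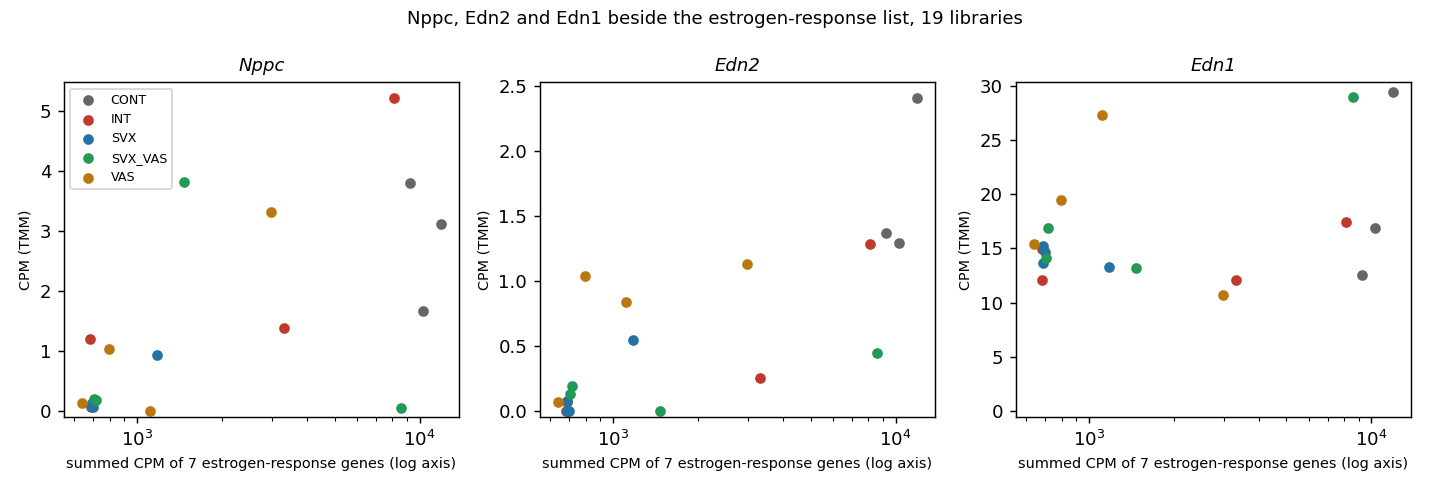
CPM with TMM scaling of Nppc, Edn2 and Edn1 (vertical axes) against the summed CPM of 7 estrogen-response genes (horizontal log axis) in the 19 libraries, coloured by group. The CONT libraries lie at 9228 CPM and above on the horizontal axis, next to INT library 1 and SVX_VAS library 2, and SVX_VAS library 2 has almost no Nppc.

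Per kilobase of exon, the order of the 10 genes changed between stages. In CONT, Ece1 led at 34.6 ± 1.29 CPM per kb (SD, n = 3), followed by Npr1 (13.9 ± 2.27) and Npr2 (13.4 ± 2.67), which did not differ beyond their spread. Edn1 (8.35 ± 3.73) came next and overlapped both of these within 1 SD. Below them came Nppc (2.75 ± 1.05), Ednrb (2.0 ± 0.780), Ednra (1.93 ± 0.367), Npr3 (1.35 ± 0.315) and Edn2 (1.15 ± 0.426), where neighbours in this order overlapped within 1 SD, although Ednra was above Npr3 in each CONT library, and Edn3 was last at 0.130 ± 0.0965. In INT, Ece1 (30.1 ± 2.90, n = 4) was followed by Ednrb (20.7 ± 5.32) and Npr2 (18.2 ± 2.02), whose spreads overlapped, then by Npr1 (8.49 ± 0.658), Ednra (6.62 ± 0.623), Edn1 (6.03 ± 1.10) and Npr3 (4.94 ± 0.893), of which Ednra overlapped Edn1 and Edn1 overlapped Npr3. Nppc (1.89 ± 2.15), Edn3 (1.65 ± 0.311) and Edn2 (0.275 ± 0.410) closed the INT order, with Nppc and Edn3 not apart. Ednrb thus moved from a level like that of Nppc at estrus to the level of Npr2 on day 3.5 pc.

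The receptor mix changed in both families. Ednra made up 52.2, 40.6 and 57.3% of the summed Ednra and Ednrb level (CPM per kb) in CONT libraries 1, 2 and 4, and 26.3, 28.7, 22.6 and 21.3% in INT libraries 1 to 4. The groups did not overlap, with means of 50.05 ± 8.54% (SD, n = 3) and 24.7 ± 3.41% (SD, n = 4), and the exact two-sided permutation test gave p = 0.0571, the smallest that 35 splits of 3 against 4 libraries allow, so 0.05 cannot be reached. Ednra itself rose, so its smaller share reflects the larger rise of Ednrb, and the summed level of both receptors went from 3.92 ± 0.950 to 27.3 ± 5.91 CPM per kb. In the other mated groups the mean Ednra share was 20.5 ± 1.31% (SVX), 23.4 ± 3.55% (SVX_VAS) and 28.6 ± 4.13% (VAS, n = 4 each), and no library exceeded 31.5%. VAS libraries 1 and 4 held 30.8 and 22.5%.

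Npr3 made up 4.10, 4.66 and 5.26% of the summed natriuretic peptide receptor level in the CONT libraries, and 13.1, 16.3, 16.5 and 16.2% in the INT libraries. These groups also did not overlap, with means of 4.68 ± 0.581% (SD, n = 3) and 15.5 ± 1.61% (SD, n = 4) and the same smallest exact permutation p of 0.0571 (2 shares were compared, so the Benjamini-Hochberg adjusted value is also 0.0571). The mean was 14.5 ± 1.39% in SVX, 14.1 ± 1.78% in SVX_VAS and 16.4 ± 3.0% in VAS, where libraries 1 and 4 held 12.3 and 16.2%. Unlike the endothelin receptors, the summed level of the 3 natriuretic peptide receptors moved little, from 28.6 ± 3.61 to 31.6 ± 3.18 CPM per kb, with ranges of 24.5 to 30.8 and 28.1 to 35.8 that overlap. Among the cyclase receptors, the Npr1 share of Npr1 and Npr2 was 50.9 ± 6.35% in CONT and 31.9 ± 2.27% in INT, a ratio picked after its values were seen and not tested.

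**Figure D4:**
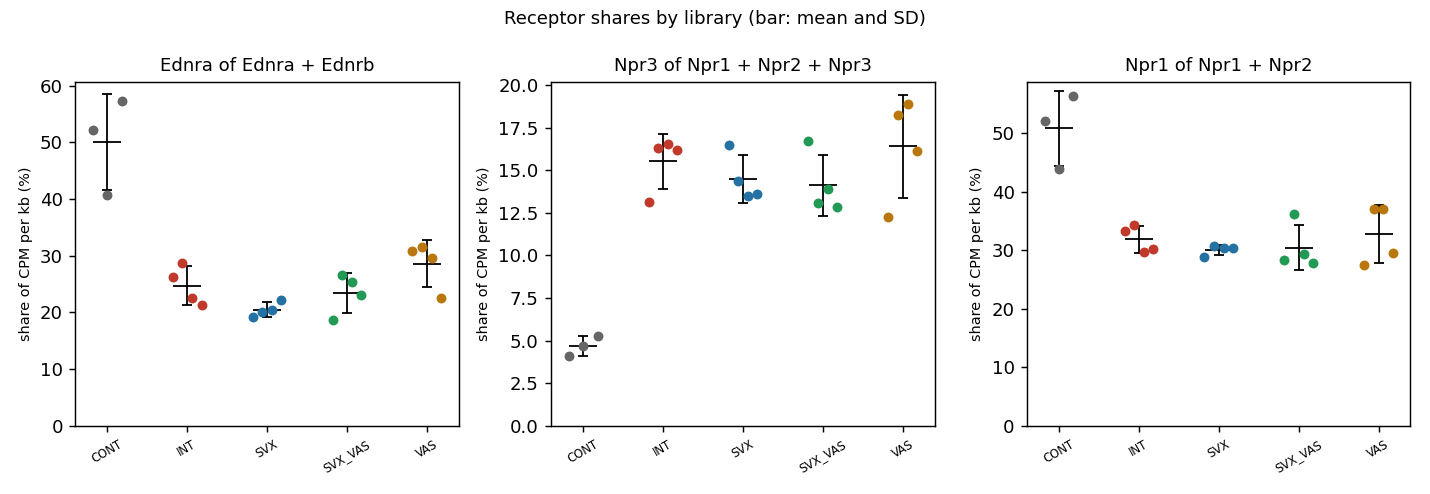
Share (%) of Ednra among endothelin receptors, of Npr3 among natriuretic peptide receptors, and of Npr1 among the cyclase receptors, from CPM per kb of exon, in each library (points) with the mean and SD of each group. CONT lies at 40.6 to 57.3% for Ednra and 4.10 to 5.26% for Npr3, apart from all mated libraries.

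The surgically modified groups were compared with INT in the same fit, which asks whether these genes differ on day 3.5 pc with the male. None of the 9 tested genes was called in SVX, SVX_VAS or VAS against INT by edgeR, DESeq2 or limma-voom, and none had an unadjusted p under 0.05 in edgeR (the lowest was 0.0861, for Nppc in SVX). The background was 0, since edgeR called no gene at all in these comparisons, where 749 (4.35%), 339 (1.97%) and 1831 (10.6%) genes had an unadjusted p under 0.05. For VAS the background depended on single libraries, since edgeR called 574 genes against INT without VAS library 1 and 133 without VAS library 4, none of them among the 9. DESeq2 called 3, 2 and 0 genes, and limma-voom 0, 0 and 1661. The test of any difference among the 4 mated groups likewise called none of the 9 genes and 0 genes overall in edgeR, with 1213 genes at an unadjusted p under 0.05 and 172 called without VAS library 4, and it called 21 genes in DESeq2 and 1396 in limma-voom. These results do not show equal levels. The 95% interval of the logFC against INT ran for Ednrb from -0.19 to 1.05 in SVX, from -0.55 to 0.68 in SVX_VAS and from -0.66 to 0.57 in VAS (-0.92 to 0.68 without VAS libraries 2 and 3). With all VAS libraries the logFC of the 9 genes in VAS against INT lay between -0.79 (Nppc) and 0.44 (Edn3), and without those 2 libraries between -0.18 (Edn3) and 0.062 (Npr2). The logFC of Nppc was then -0.12. The sign turned for Edn1 (0.37 to -0.11), Edn3, Ednra (0.23 to -0.081), Npr3 (0.13 to -0.14) and Npr1 (0.077 to -0.16), none of them called in either fit. In SVX it was narrowest for Ece1 (-0.21 to 0.13), followed by Npr2 (-0.16 to 0.33) and Npr1 (-0.31 to 0.25), and widest for Nppc (-5.73 to 0.42).

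Against CONT, each surgically modified group gave 5 of 9 genes called, with 4 higher and 1 lower, where 41.5% of all genes were called in SVX (23.1% higher, 18.4% lower), 38.5% in SVX_VAS (22.1% higher, 16.4% lower) and 40.4% in VAS (23.2% higher, 17.2% lower). All 4 comparisons share the same 3 CONT libraries. The called genes were Edn3, Ednra, Ednrb, Npr3 and Npr1 in each, of which Edn3 passed the filter on low counts only through the mated groups. Libraries did not overlap CONT in 8 of the 9 tested genes in SVX (88.9%, beside 70.9% of all genes tested), in 7 in SVX_VAS (77.8%, beside 67.5%) and in 7 in VAS (77.8%, beside 55%). Without VAS libraries 2 and 3, the logFC of VAS against CONT was 3.50 for Edn3, 1.70 for Ednra, 3.23 for Ednrb, 1.73 for Npr3 and -0.86 for Npr1, and the number of genes called stayed at 5. Of the genes not called, the logFC was then -0.59 for Edn1 (FDR 0.172), -0.70 for Nppc (FDR 0.684) and 0.50 for Npr2 (FDR 0.0140).

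Genes on the same pathways were read from lists of 56 further genes, of which 45 were tested in INT against CONT. Of these 45, 23 were higher and 8 lower (68.9% called, beside 33.6% of all genes tested), with a median logFC of 0.63. The lists were chosen with earlier results of these data known, so this share is not an independent test of the pathways. In the cyclic GMP list, which holds the soluble guanylyl cyclase subunits, the kinases they feed and the phosphodiesterases that break cyclic GMP down, 11 of 15 tested genes were higher and 1 was lower, with a median logFC of 1.12. The largest rises were those of Pde1a, a calcium-dependent phosphodiesterase, which went from 5.87 ± 2.25 CPM in the 3 estrus libraries to 27.9 ± 6.75 CPM in the 4 INT libraries (mean ± SD, logFC 2.25 with a standard error of 0.33), and of Gucy1a2, a subunit of soluble guanylyl cyclase, from 4.04 ± 1.19 to 18.2 ± 2.13 CPM (logFC 2.17). Vasp, an actin regulator phosphorylated by cyclic GMP-dependent kinase, was the lower gene, from 223 ± 15.1 to 132 ± 19.5 CPM (logFC -0.76).

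Among 12 genes of endothelin processing and breakdown, 8 were tested, 3 were higher and 3 lower, with a median logFC of -0.36. Mme, which encodes neprilysin, a protease that degrades endothelins and natriuretic peptides, was at 65.9 ± 20.7 CPM in CONT and 793 ± 286 CPM in INT (logFC 3.59, standard error 0.45, edgeR FDR 1.52e-05). The proprotein convertase gene Pcsk5 was also higher (logFC 2.75), while Pcsk6 (-2.63) and Furin (-1.17), of the same enzyme family, were lower. Ide, a protease that cuts natriuretic peptides, was the 1 tested gene among 5 natriuretic peptide ligands and processing enzymes, and it was lower (195 ± 10.5 to 116 ± 19.6 CPM, logFC -0.76). Of 21 genes of endothelin receptor signalling, all tested, 9 were higher and 3 lower, with a median logFC of 0.33. Rgs5, which limits signalling by Gq and Gi, rose from 141 ± 27.0 to 613 ± 124 CPM (logFC 2.12), and Plcb1, a phospholipase C activated by Gq, from 7.81 ± 1.05 to 29.6 ± 7.01 CPM (logFC 1.93). The inositol trisphosphate receptor Itpr3 (logFC -1.30) and the G protein subunit Gna13 (-0.76) were lower. Exons of Furin, Plcb1, Itpr3 and Gna13 overlap another gene on the opposite strand.

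**Figure D5:**
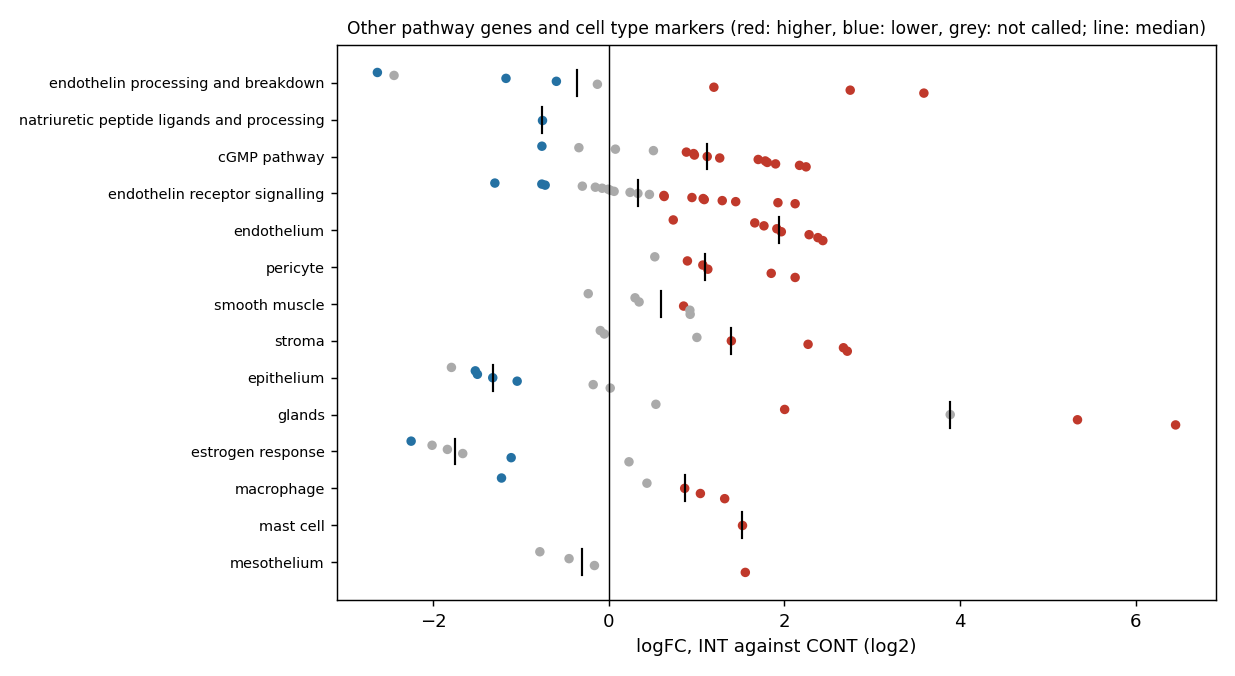
logFC (log2) in INT against CONT of each tested gene in 4 pathway lists and 10 marker lists (points, coloured by call), with the median of each list (vertical line). All 8 endothelial markers lie above 0, and the cyclic GMP list has 11 genes called higher and 1 lower.

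Markers of the cell types that could carry these genes moved as well. All 8 endothelial markers (Pecam1, Cdh5, Tek, Tie1, Emcn, Cldn5, Kdr and Flt1) were higher in INT, with a median logFC of 1.94, and their summed level rose from between 217 and 315 CPM in CONT to between 728 and 1084 CPM in INT. Of 6 pericyte markers, 5 were higher (summed level 349 to 449 CPM in CONT, 909 to 1286 CPM in INT), and Rgs5 is in this list as well. Stromal markers were higher in 4 of 7 (4568 to 4826 CPM against 6250 to 7940.5 CPM), and epithelial markers were lower in 4 of 7 with none higher (3196 to 4330 CPM against 754 to 2283 CPM). Smooth muscle markers, of which 1 of 6 was higher, overlapped between the groups (237 to 500.3 CPM against 359 to 875 CPM), although the myometrium had been discarded. Macrophage markers were higher in 3 of 5 with Cd68 lower, gland markers higher in 3 of 5 tested, and mesothelial markers higher in 1 of 4 (Wt1). Of 5 mast cell markers only Kit was high enough to be tested, and it was higher, while Cma1, Cpa3, Mcpt4 and Tpsb2 stayed at or below 0.605 CPM in CONT and INT. Side by side, the logFC was 3.36 for Ednrb (95% interval 2.59 to 4.13) and 2.44 for Emcn (1.98 to 2.89), the highest of the 8 endothelial markers, and the difference was not tested. The logFC of Ednra and Npr3 lay within the range of these markers, 0.74 to 2.44. In the other mated groups all 8 were higher as well, and their summed level lay between 613 and 1169 CPM. Some stromal markers rose by more than Emcn, whose mean went from 10.6 CPM in CONT to 57.7 CPM in INT. Hoxa10 went from 32.9 to 210 CPM and Hoxa11 from 28.2 to 186 CPM, while the means of Dcn and Col1a1 did not rise. The summed level of stromal markers was 1601 and 1710 CPM in VAS libraries 2 and 3, below every other library including CONT. Summed pericyte markers, at 649 and 725 CPM there, were the lowest of the mated libraries. The stromal list was split. Col1a1, Col3a1 and Dcn had VAS minima of 379, 532 and 110 CPM, under the CONT minima of 1911, 1637 and 442 CPM. Every VAS library was above every CONT library for Hoxa10 (at least 101 CPM against at most 42.8), Hoxa11 (85.0 against 38.2) and Hand2 (31.8 against 18.2). In bulk RNA, a change in the number of cells of a type and a change in RNA per cell cannot be told apart, and the part of cell composition in these rises was not tested.

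The genes with the levels most like those of each tested gene were found by the root mean square difference of gene-centred log2 CPM over the 19 libraries. Ednrb was closest to Map2, a microtubule-associated protein gene (0.180), D630045J12Rik (0.194) and Gpc3, a glypican gene (0.195), with Map2 going from a mean of 26.3 CPM in CONT to 309 CPM in INT. Ednra was closest to Zfp74 (0.132), Stxbp4 (0.141) and Fbxo17 (0.144). Npr3 was closest to Gm38346 (0.133), Bbs7 (0.143) and Rasgrp3 (0.149), and Edn3 to 5330437M03Rik (0.317), Gm42584 (0.320) and Ptpro (0.328). For Npr1 the closest were Hspa2 (0.120), Atxn7l1 (0.126) and Ttll3 (0.130), and for Npr2 Myo9b (0.0872), Zcchc14 (0.0958) and Lrch3 (0.0963). Ece1, which hardly moved, had the closest neighbours, March6 (0.0730), Tubgcp4 (0.0745) and Kdm2a (0.0783), and Edn1 was closest to Gpr137c (0.182), A330023F24Rik (0.196) and March3 (0.215). Nppc had no close neighbour, since even Csmd2 (0.775), Ramp3 (0.833) and A2m (0.900) were far from it.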

How the data were processed

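Per the labels and the study's methods, total RNA libraries were paired-end and made with a strand-keeping kit. The authors removed adapters, used STAR to align reads to GRCm38/mm10 and featureCounts to assign them to genes, and deposited the raw counts without normalization. The submitters' notes also name FastQC, limma and edgeR. The strand setting and annotation were not given in the sources used here. The deposited table also gives each gene's exon length, used as its own unit for CPM per kb.

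Here, the 17222 genes reaching 3 CPM in 3 or more of 19 libraries were tested in R 4.3.3 with edgeR 4.0.16 (TMM, quasi-likelihood, all 5 groups, no replicate block, Benjamini-Hochberg). Receptor shares were compared with exact permutation tests. All 10 genes were named, with the 2 largest rises and falls among called genes of each pathway list and the 3 most alike genes of each tested gene. The fit was tested on simulated data. Genes and lists were chosen with earlier results of these data known. Alternatives were DESeq2 1.42.0, limma 3.58.1 (voom), other scalings and filters, only the groups compared, a replicate block and leaving out each library. Leaving out VAS libraries 2 and 3 was, for some comparisons, added after the data were seen. Promoter sequences are from RefSeq. Figures were drawn with Python 3.11.15.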

Additional observations from a re-analysis of the deposited data

Results flagged for a closer look

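A library far from the other 3 of its group was searched for in 48 groups of 4 libraries (the 10 genes and 2 receptor shares in each mated group), and 8 were found. Chance would give 2.4 if the 48 were independent, which they are not, since they share libraries and the shares are made from the same genes. SVX library 1 accounted for 5 of them. It held 0.545 CPM of Edn2 against at most 0.0786 CPM in the other SVX libraries, and 0.935 CPM of Nppc against 0.0731 to 0.143 CPM. It was low for Edn3, with 4.98 CPM against 10.5 to 11.2 CPM, for Npr1, with 34.1 CPM against 41.2 to 42.2 CPM, and for Npr2, with 82.2 CPM against 92.4 to 92.9 CPM. SVX_VAS library 4 held 3.82 CPM of Nppc against 0.0554 to 0.198 CPM. VAS library 4 held 94.9 CPM of Npr2 against 80.9 to 82.5 CPM. In INT library 1 the Npr3 share of natriuretic peptide receptors was 13.1%, against 16.2 to 16.5% in the other INT libraries.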

How the results depend on the processing

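The number of genes called against CONT was 5 in each comparison and lay between 4 and 6 under all alternatives run, and it was 0 against INT under all of them, although the number of all genes called in VAS against INT was not stable. Edn3, Ednra, Ednrb and Npr3 were called higher in all 4 comparisons with CONT under every alternative, with the lowest logFC 3.21, 1.61, 3.09 and 1.61 with a library left out. In the comparisons with CONT, direction turned only for Edn1. With upper quartile scaling its logFC against CONT was 0.044 in SVX_VAS and 0.11 in VAS, and with a library left out it lay between -0.41 and 0.31 in SVX_VAS and between -0.35 and 0.31 in VAS. With upper quartile scaling Npr1 was under 1.5-fold in all 4 comparisons (-0.58, -0.56, -0.53 and -0.42 in INT, SVX, SVX_VAS and VAS), and Npr2 was over it in SVX (0.69), SVX_VAS (0.71) and VAS (0.64), as it was in all 4 comparisons without CONT library 2 (0.60 to 0.73), and in SVX_VAS without SVX_VAS library 2 (0.63) or with only the groups compared (0.59). Npr1 was also under it without CONT library 4 in SVX_VAS (-0.54) and VAS (-0.49), and in VAS without VAS library 1 (-0.51). Nppc was called with limma-voom in SVX_VAS (-3.24, FDR 0.0433) and VAS (-3.14, FDR 0.0365), and in SVX without VAS libraries 2 and 3 (-3.22, FDR 0.0480). The causes were not tested. The Npr3 share difference between INT and CONT was 10.8 percentage points and lay between 10.5 and 11.6 with a library left out, and that of Ednra was -25.3, between -30.0 and -21.7. The counts of Edn2 and Nppc, at 0 to 4 in many libraries, limit what can be said of them.

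Replicate numbers were not taken to pair the samples, since the labels give them no meaning and in none of the 7 comparisons with CONT or INT did the deviations of every same-numbered pair correlate at over 0.1. They correlated at 0.125, -0.300 and 0.165 in INT against CONT. All pairs were positive in VAS against CONT (0.0668 to 0.297) and in VAS against INT (0.0406 to 0.345), and SVX_VAS against INT ran from -0.688 to 0.583. Of 19 libraries, 4 correlated best with their own number. With a replicate block, 5 genes were called against CONT in each comparison, 5594 of all genes were called in INT against CONT in place of 5780, and the Npr3 and Ednra share differences over numbers 1, 2 and 4 were 10.5 and -24.6 percentage points.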
